A study of Arabidopsis thaliana with 4 samples.

Results

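The transcripts described here are those of the chloroplast and mitochondrial genomes of Arabidopsis thaliana, measured in mixed-stage inflorescences on the ATH1 array. They were taken as a block of 150 consecutively numbered probe sets, out of 22746 that are not controls. The platform annotation places 77 of them on plastid genes and 13 on mitochondrial genes. A further 15 carry nuclear genes of chromosome 2 and 45 have no listed gene, so the block is not wholly organellar, and the plastid and mitochondrial probe sets were read separately. Of the 77 plastid probe sets, 69 name 1 gene and 8 list both copies of a gene that the plastid genome holds in duplicate or in separate pieces. Of the 13 mitochondrial ones, 12 name 1 gene, and 1 lists rps3 and rpl16 together. The older mitochondrial identifiers of the annotation were matched by gene symbol, and the rps3 and rpl16 named there are not the plastid genes of the same names.

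Wild-type Col-0 was compared with xrn4-5, a mutant allele of XRN4 in the same Col-0 ecotype. All plants grew untreated in 16 h of light and 8 h of dark, and each genotype has 2 arrays, numbered 1 and 2. XRN4 is a cytoplasmic exoribonuclease that works from the 5' end of RNAs that have lost their cap, and the study asks which transcripts differ in level in its mutant. Nothing in the labels tells whether the 2 samples of each genotype were harvested from different plants. The p-values therefore reflect the spread between these samples alone, and that spread may be technical.

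Plastids and mitochondria keep small genomes of their own, read by their own RNA polymerases and translated on their own ribosomes. Most plastid genes are copied together with their neighbours into long RNAs, which nuclear-encoded proteins then cut, splice, edit and trim, and these organelles have ribonucleases of their own. The plastid genes encode core subunits of the photosystems, the cytochrome b6f complex, ATP synthase, Rubisco and the NADH dehydrogenase-like (NDH) complex of cyclic electron flow, while most of their partner subunits come from the nucleus. Poly(A) tails on plant organelle RNAs are known as short-lived marks of decay, unlike those of cytoplasmic mRNAs. The sources used here do not give how the labelled RNA was primed, and the part of priming in the signal was not tested.

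The signal is a linear intensity in arbitrary units, and the authors had brought the arrays to a common level, with a 2% trimmed mean of 500.04 each. The median signal per array was 240 to 248. Differences are given as xrn4-5 minus Col-0 of log2(signal + 32), a scale that understates differences of dim probe sets. Array 1 of Col-0 stood apart in the control probe set for 25S ribosomal RNA, with 763 against 274 and 251 in xrn4-5 and 296 in array 2 of Col-0. The 5S ribosomal RNA control gave 250 and 177 in xrn4-5 and 303 and 315 in Col-0. Plastid probe sets together held 1.86% and 1.80% of the summed signal in xrn4-5 and 2.15% and 1.98% in Col-0.

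Plastid transcripts gave lower signals in xrn4-5 than in Col-0 for most genes, by small amounts, and none passed the test. Of 74 plastid probe sets above the filter on dim signals, 0 had a limma adjusted p under 0.05, against 0.00733% of all 13647 tested. At an unadjusted limma p under 0.05, 16 were lower (background 3.95%) and 0 were higher (background 5.38%). Over all 77, the estimate was below 0 for 66 (47% of all probe sets), and both xrn4-5 arrays lay below both Col-0 arrays for 36 (17.2% of all probe sets). The opposite held for 1 (21.4% of all probe sets), and the genotypes overlapped in 40. The median log2 difference was -0.24, against 0.02 over all probe sets. Less of these RNAs per cell and fewer plastid-rich cells in the sample cannot be told apart.

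Much of that shift came with array 1 of Col-0. The median deviation of the plastid probe sets from their own mean over the 4 arrays was 0.24 in Col-0 array 1 but 0.01 in Col-0 array 2, against -0.08 and -0.17 in the xrn4-5 arrays. Array 1 of Col-0 gave the highest of the 4 signals for 55 of the 77 and the lowest for 1. Without it, the median over the 74 tested was -0.12, with 8 lower (background 3.34%) and 5 higher (background 4.65%) at an unadjusted limma p under 0.05. Without array 2 of Col-0 the median was -0.39, with 33 lower (background 4.87%) and 0 higher (background 5.15%). Array 1 of Col-0 is also the one apart in the 25S ribosomal RNA control, whose part in the plastid values was not tested.

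**Figure D1:**
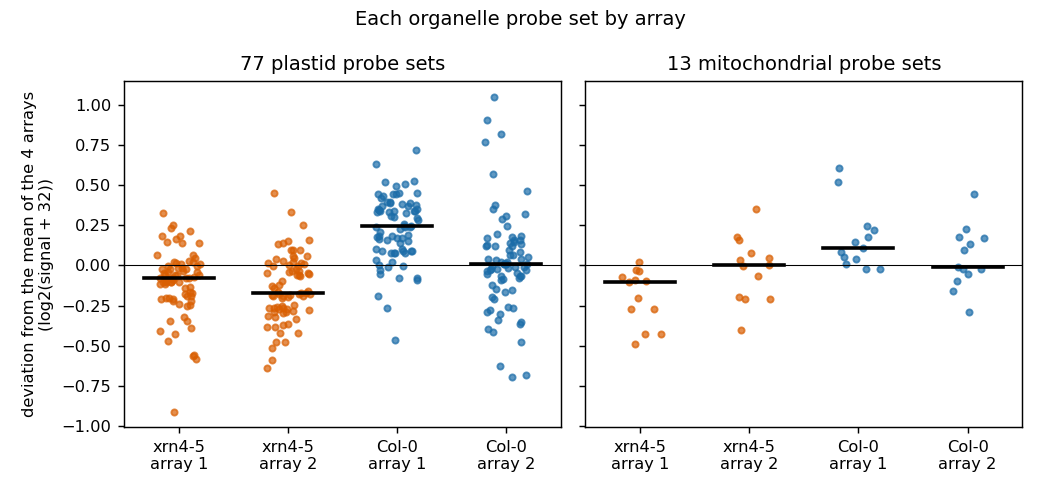
Deviation of each organelle probe set from its own mean over the 4 arrays, on the log2(signal + 32) scale, for the 77 plastid (left) and 13 mitochondrial (right) probe sets. Points are probe sets and bars are medians; the plastid median is highest in Col-0 array 1 (0.24) and lowest in xrn4-5 array 2 (-0.17).

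The genes of the NDH complex had a median difference that stayed below 0 against either Col-0 array alone. That was not particular to them. It also held for the RNA polymerase, ribosomal, cytochrome b6f, photosystem I, photosystem II and remaining genes, and for all plastid probe sets together. Only the medians of the ATP synthase, ycf and Rubisco genes were above 0 without array 1 of Col-0. The NDH complex feeds electrons from ferredoxin back into the plastoquinone pool around photosystem I, and 11 of its subunits are plastid-encoded. All 11 estimates were below 0 (background 47%), both xrn4-5 arrays lay below both Col-0 arrays for 10 (background 17.2%), and 7 were lower at an unadjusted limma p under 0.05 (background 3.95%). The median log2 difference was -0.51, and it was -0.42 without array 1 of Col-0 and -0.56 without array 2. Over the 63 tested plastid probe sets outside the complex the medians were -0.21, then -0.06 and -0.34. Whether the NDH genes differ from the other plastid genes was not tested, and each of the 11 missed the adjusted test without a block.

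ndhJ, which encodes a subunit of the arm that meets the stroma, had the smallest unadjusted p of all plastid genes. Its signal was 314 and 345 in xrn4-5 and 540 and 533 in Col-0. The 2 Col-0 arrays nearly coincided and both lay well above the mutant arrays. Col-0 was 1.57-fold higher (log2 difference -0.66, SE 0.12, limma adjusted p = 0.391). Its partners in the same short gene cluster, ndhC and ndhK, were also separated, with smaller differences. ndhC, a membrane subunit, gave 4757 and 4587 in xrn4-5 and 6568 and 5201 in Col-0, and its log2 difference was -0.32. For ndhK, a subunit with an iron-sulfur centre, the signals were 278 and 309 against 341 and 362, a log2 difference of -0.24.

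Larger differences, with a wider spread in Col-0, belonged to ndhF, ndhE and ndhG, all membrane subunits. ndhE gave 846 and 937 in xrn4-5 and 1338 and 2396 in Col-0, so that Col-0 exceeded the mutant 1.98-fold (log2 difference -0.98, SE 0.27, limma adjusted p = 0.448). Here the arrays of xrn4-5 were close together, while array 2 of Col-0 lay far above array 1. The same layout held for ndhF, with 250 and 212 against 354 and 754 (log2 difference -1.07, SE 0.33, limma adjusted p = 0.468), which was -1.58 without array 1 of Col-0 and -0.56 without array 2. In ndhG, with 247 and 346 against 359 and 702 (log2 difference -0.72), xrn4-5 array 2 and Col-0 array 1 nearly met. These 3 genes were thus highest in array 2 of Col-0, not in array 1, unlike most plastid genes.

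In ndhA, ndhD and ndhI, Col-0 array 1 was the highest and xrn4-5 array 2 the lowest of the 4. ndhD, a membrane subunit of the proton-pumping arm, gave 4066 and 3234 in xrn4-5 and 5504 and 4876 in Col-0 (log2 difference -0.51, SE 0.15, limma adjusted p = 0.450). For ndhA, a membrane subunit near the junction of both arms, the signals were 2592 and 1965 against 3602 and 3110, and the log2 difference was -0.56 (SE 0.17, limma adjusted p = 0.456). ndhI, which carries iron-sulfur centres, gave 7296 and 5950 against 9824 and 8223 (log2 difference -0.45, SE 0.14, limma adjusted p = 0.485). None of these 3 genes overlapped between the genotypes. ndhH, a stromal-arm subunit, was dim, at 239 and 234 against 325 and 298 (log2 difference -0.36). ndhB, the only overlapping member, lies in the inverted repeat and its probe set reads both copies, with 159 and 204 in xrn4-5 and 228 and 200 in Col-0.

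**Figure D2:**
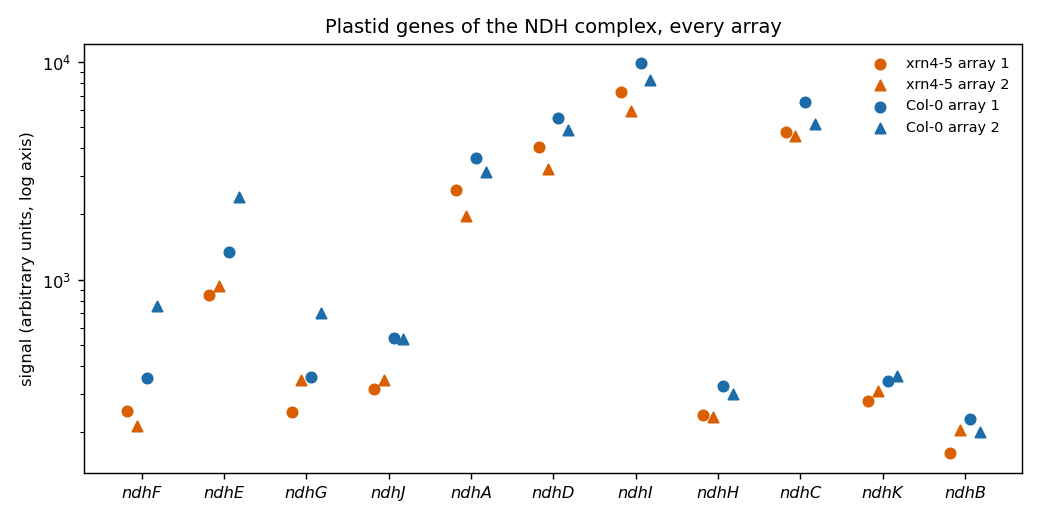
Signal (arbitrary units, log axis) of the 11 plastid genes of the NDH complex in each array, with xrn4-5 in orange, Col-0 in blue, circles for array 1 and triangles for array 2. Genes run from the most negative log2 difference (ndhF, -1.07) to the least (ndhB, -0.21), and both orange points lie below both blue points for 10 of the 11.

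In the authors' deposited table, which gives a log2 ratio and a change p-value for each pair of same-numbered arrays, the ratio was below 0 in both pairs for 10 of the 11 NDH genes. In the authors' deposited table this held for 44 of the 77 plastid probe sets (background 18.9%). By pair, it had 67 of the 77 below 0 in pair 1, which holds array 1 of Col-0, and 50 in pair 2. Over all 22746 probe sets those counts were 9740 and 7754. The plastid medians of the authors' ratios were -0.3 and -0.1. Some genes changed sign between the pairs, such as psbC (-0.5 and 0.8) and ycf4 (-0.4 and 0.4). A change p-value over 0.99 in both pairs, which there stands for a decrease, was given to 8 of the 11 NDH genes, 19 of the 77 plastid probe sets and 1.93% of the whole array in the authors' deposited table. The ratios of the authors' deposited table were, in pairs 1 and 2, -0.6 and -1.0 for ndhE, -0.7 and -1.5 for ndhF, and -0.6 and -0.4 for ndhJ. These pairs are the same 4 arrays, so they add no independent samples.

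Genes for the plastid's own gene expression machinery were also lower in xrn4-5 by most estimates. The plastid-encoded RNA polymerase, which transcribes mainly photosynthesis genes, has 4 genes in the block, and the median log2 difference over them was -0.44. Over the 3 of them that were tested it was -0.59, and -0.46 without array 1 of Col-0 and -0.64 without array 2. The NDH median of -0.51 lies between the values over 4 and over 3, so which group is further from 0 depends on the filter on dim signals. rpoA, for its alpha subunit, gave 1674 and 1344 in xrn4-5 and 2711 and 2072 in Col-0, so that Col-0 exceeded the mutant 1.57-fold (log2 difference -0.65, SE 0.18, limma adjusted p = 0.448). rpoC1, for part of the beta' subunit, gave 1979 and 1448 against 2657 and 2480 (log2 difference -0.59, SE 0.17, limma adjusted p = 0.453). Both genotypes were separated in these genes and in rpoC2, at 739 and 614 against 930 and 742, where xrn4-5 array 1 and Col-0 array 2 differed only slightly. rpoB, for the beta subunit, was too dim for the test, and its signals overlapped, at 115 and 127 against 169 and 90.5.

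Genes for proteins of the plastid ribosome had estimates of 1 sign. All 20 probe sets had an estimate below 0 (background 47%), 10 were separated downwards (background 17.2%), and the median log2 difference was -0.27. It was -0.15 without array 1 of Col-0 and -0.41 without array 2. rpl20, for a protein of the large subunit, had the smallest p, with 829 and 782 in xrn4-5 and 1267 and 1055 in Col-0 (log2 difference -0.51, SE 0.14, limma adjusted p = 0.447). Its genotypes did not overlap, and those of rps15 and rps4, for proteins of the small subunit, did not either. rps15 gave 797 and 708 against 914 and 1055, and rps4 gave 5895 and 5130 against 7271 and 6537. rpl33, the brightest probe set with 1 ribosomal gene, overlapped at 8422 and 7877 against 9390 and 8144, and its log2 difference of -0.10 came to 0.00019 without array 1 of Col-0. The probe sets of rps12, whose pieces are joined by trans-splicing, both peaked in Col-0 array 1, and 1 of them gave 472 and 446 in xrn4-5 and 785 and 277 in Col-0, with the Col-0 arrays on either side of the mutant ones.

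Structural genes of photosynthesis were closer to 0. The 33 probe sets for the photosystems, cytochrome b6f, ATP synthase and Rubisco had a median log2 difference of -0.13. Of them, 10 were separated downwards (background 17.2%) and 1 upwards (background 21.4%). Over the 32 tested the median was -0.12, and it was -0.03 without array 1 of Col-0 and -0.23 without array 2. Whether they differ from the other plastid genes was not tested. In photosystem I, 3 of 5 were separated downwards (background 17.2%). psaC, which binds the terminal iron-sulfur clusters and lies among the ndh genes, gave 1339 and 908 in xrn4-5 and 1898 and 1570 in Col-0 (log2 difference -0.63, SE 0.21, limma adjusted p = 0.488). psaI, for a small membrane subunit, gave 2592 and 2291 against 3361 and 3114 (log2 difference -0.40, SE 0.12, limma adjusted p = 0.456). psaJ, also a small membrane subunit and the brightest of the group, overlapped at 16957 and 15556 against 15888 and 16412, and its log2 difference of 0.0083 turned to -0.017 with arrays centred on the median. The reaction centre genes were not alike, since psaB was separated, at 8449 and 8854 against 9760 and 9315, and psaA overlapped, at 2943 and 2298 against 2823 and 2041.

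Most photosystem II genes overlapped between the genotypes. Of 15, 11 did so, beside 13971 of all 22746 probe sets, and the median log2 difference was -0.13. psbM, for a small subunit at the dimer interface, was among the brightest probe sets of the whole array, ranking 2 or 3 of all on each. Its signals were 22081 and 22290 in xrn4-5 and 21076 and 21976 in Col-0, the only plastid probe set with both mutant arrays above both wild-type arrays. That separation ended with median centring and with quantile normalization, and its log2 difference was 0.04. The highest signal of any probe set was 22830 to 24867 per array. psbA, for the D1 protein, gave 2248 and 1791 against 2157 and 2000, and psbC, for an inner antenna protein, gave 1947 and 1742 against 2425 and 1047, so both overlapped.

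In the cytochrome b6f complex petL and petD were separated among 6 genes, and petB, for cytochrome b6 and the brightest, overlapped at 14169 and 12096 against 14727 and 14033. petL, a small subunit, gave 2231 and 1771 against 3063 and 2413 (log2 difference -0.45, SE 0.17, limma adjusted p = 0.530). ATP synthase genes had a median log2 difference of 0.02 over 6. atpB, for the catalytic subunit, gave 19650 and 19183 in xrn4-5 and 20190 and 19875 in Col-0, separated by a log2 difference of only -0.05. atpH, for the membrane ring, had the highest estimate of all plastid genes, 0.46, and yet overlapped, at 1050 and 912 against 940 and 527. rbcL, for the large subunit of Rubisco, gave 629 and 843 against 1107 and 721 (log2 difference -0.28, SE 0.24, limma adjusted p = 0.756). Its Col-0 arrays enclosed array 2 of xrn4-5, and its difference turned to 0.014 without array 1 of Col-0.

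Genes outside these complexes included matK, for a splicing factor encoded within an intron, which gave 11220 and 8888 in xrn4-5 and 12209 and 12351 in Col-0 (log2 difference -0.30, SE 0.13, limma adjusted p = 0.563). clpP, for a protease subunit, gave 4369 and 4326 against 6242 and 5088 (log2 difference -0.37). Both were separated. ycf4, an assembly factor of photosystem I and the brightest member of its group with 1 gene, overlapped at 1659 and 1648 against 2300 and 1250. Its log2 difference of -0.04 became 0.39 without array 1 of Col-0.

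**Figure D3:**
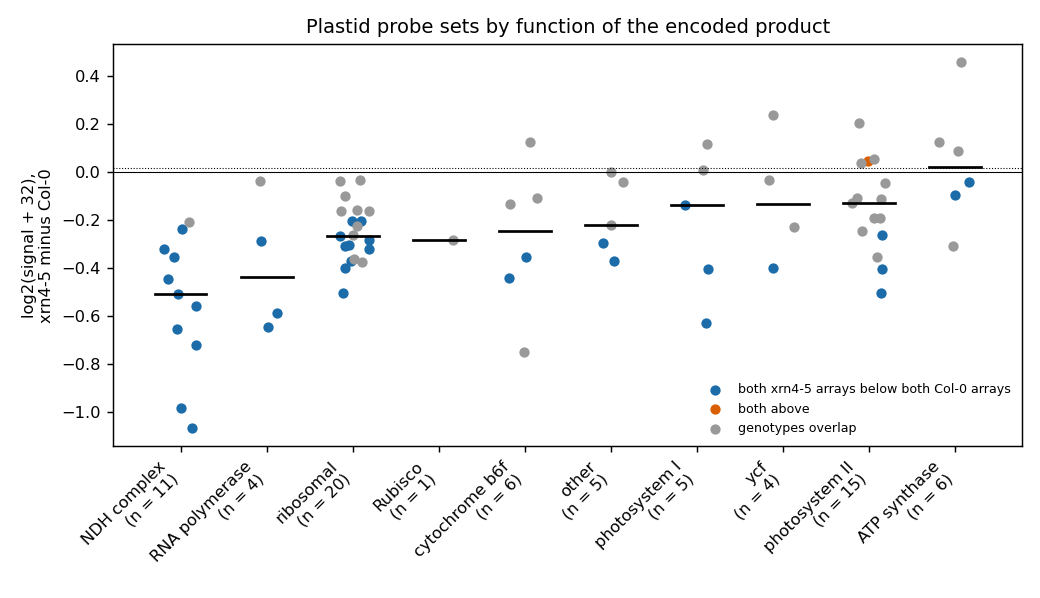
Difference of log2(signal + 32), xrn4-5 minus Col-0, for the 77 plastid probe sets by function of the product, with blue for probe sets whose xrn4-5 arrays both lie below both Col-0 arrays, orange for the opposite and grey for overlap. Black bars are group medians and the dotted line is the median of all probe sets (0.02); over all members, dim ones included, the NDH group has a median of -0.51, the RNA polymerase group -0.44 and ATP synthase 0.02.

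Most of the NDH genes share a region of the plastid genome. The regions and the textbook transcription units used next were chosen after the values were seen. In the small single copy region, where 11 probe sets lie, 10 were separated downwards (background 17.2%) and the median log2 difference was -0.51. The 7 NDH genes among them had a median of -0.56 and the other 4 had -0.32, with 3 of those 4 separated, while the 3 NDH genes of the large single copy region had -0.32. Of all 58 in the large single copy region 25 were separated downwards (background 17.2%), with a median of -0.20. All 7 genes of the unit from ndhH to ndhD were separated downwards (background 17.2%), psaC included. Of these, 6 were lower at an unadjusted limma p under 0.05 (background 3.95%). The only overlapping gene of the small single copy region was ccsA, for cytochrome c assembly, at 5482 and 5679 against 5976 and 5537. All 3 genes of the unit from ndhC to ndhJ and both of atpB and atpE were separated downwards too (background 17.2%). In the ribosomal unit from rpl23 to rpoA all 9 estimates were below 0 (background 47%) and 3 were separated downwards (background 17.2%). The plastid probe sets that name 1 gene were also placed in genome order. Over 68 successive pairs the median absolute gap between their log2 differences was 0.222, and over all 2346 pairs it was 0.248. Some successive genes are not direct neighbours, since genes without such a probe set were passed over.

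Several plastid genes differed between array 1 and array 2 in the same direction in both genotypes. psbK, for a small photosystem II subunit, gave 2191 and 4420 in arrays 1 and 2 of xrn4-5 and 2339 and 4819 in Col-0. psbI, its neighbour in the same unit, gave 2842 and 4034 in xrn4-5 and 3006 and 4999 in Col-0. petG, for a small subunit of the cytochrome b6f complex, gave 213 and 482 in xrn4-5 and 425 and 750 in Col-0. In each of them array 2 was higher in both genotypes, and the same held for rpl2, at 8247 and 13038 against 9605 and 14001, and for rpl23, at 4654 and 6918 against 6480 and 8387. All of them were also lower in xrn4-5 than in Col-0 within each array number. Most plastid probe sets ran the other way, since array 2 was above array 1 for 28 of 77 in xrn4-5 and 18 of 77 in Col-0. The labels do not say what an array number marks.

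**Figure D4:**
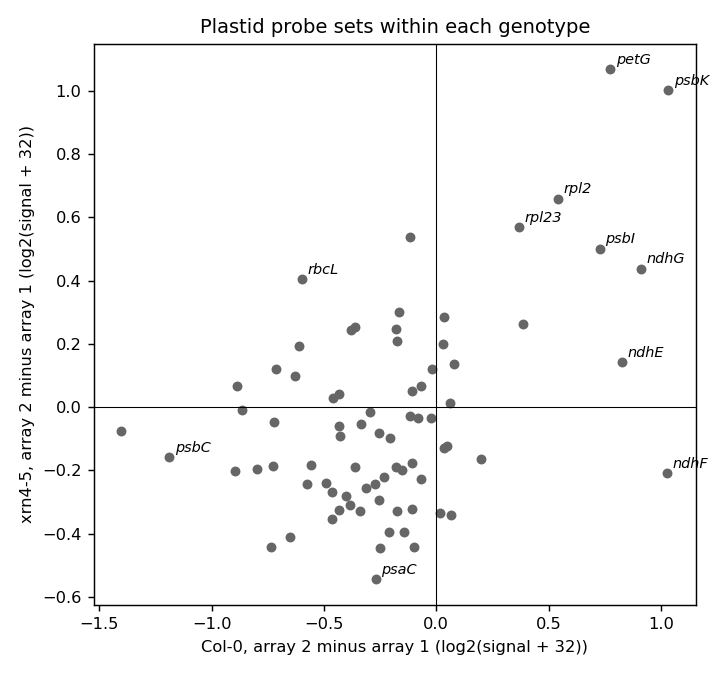
Array 2 minus array 1 within xrn4-5 (vertical) against the same within Col-0 (horizontal), on the log2(signal + 32) scale, for the 77 plastid probe sets. psbK, petG, psbI, rpl2, rpl23 and ndhG lie at the upper right, higher in array 2 of both genotypes, while most points lie below 0 on the horizontal axis.

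Probe sets annotated with mitochondrial genes were fewer and dimmer than the plastid ones. Many probe sets with no listed gene are numbered between them. Which genome those read is not given, so the 13 may be only part of the mitochondrial probe sets. Only 7 of 13 passed the filter on dim signals, 0 of them had a limma adjusted p under 0.05, and 1 was lower at an unadjusted limma p under 0.05 (background 3.95%). Of all 13, 10 had an estimate below 0 (background 47%), 6 were separated downwards (background 17.2%) and 1 upwards (background 21.4%), and the median log2 difference was -0.23. The medians of their deviations were -0.10 and 0.00 in xrn4-5 and 0.11 and -0.01 in Col-0, so array 1 of each genotype carried most of the contrast. Over the 7 tested, the median of -0.17 came to 0.00 without array 1 of xrn4-5.

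The probe set that lists rps3 and rpl16, overlapping genes for mitochondrial ribosomal proteins, had the largest gap. It gave 705 and 719 in xrn4-5 and 1473 and 1127 in Col-0. The mutant arrays nearly coincided, and both wild-type arrays lay above them. Col-0 was 1.78-fold higher (log2 difference -0.83, SE 0.16, limma adjusted p = 0.391). The difference was -0.64 without array 1 of Col-0 and -1.02 without array 2. The authors' deposited table gives it ratios of -0.8 and -0.6.

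Subunits of respiratory complex I, which oxidises NADH, leaned the same way at low signal. nad6 gave 101 and 100 in xrn4-5 and 149 and 140 in Col-0, too dim for the test (log2 difference -0.41 in a fit of all probe sets, limma adjusted p = 0.652). nad4, the brightest of the 5, gave 597 and 611 against 730 and 639 (log2 difference -0.17, SE 0.13, limma adjusted p = 0.730). nad4L gave 131 and 114 against 141 and 157. These 3 were separated, and nad9 and nad7 overlapped. cox2, for a subunit of cytochrome c oxidase, was separated, at 89.8 and 95.3 against 119 and 168.

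Genes for cytochrome c maturation, which attaches haem to the protein, did not share a direction. ccmFC was separated, at 257 and 317 in xrn4-5 and 354 and 350 in Col-0 (log2 difference -0.27, SE 0.15, limma adjusted p = 0.639). ccmFN1 overlapped, at 590 and 645 against 683 and 607, and its log2 difference of -0.06 turned to 0.022 without array 1 of Col-0. ccmB overlapped as well, at 153 and 168 against 154 and 155. ccmFN2 and matR, for a maturase, were near the bottom of the scale, at 4.7 to 38.5 and 7.5 to 29.6. mttB is the gene for a membrane protein related to bacterial twin-arginine transporters. Among the annotated mitochondrial probe sets only mttB had both mutant arrays on top, at 273 and 304 against 264 and 237. Its log2 difference was 0.18 (SE 0.15, limma adjusted p = 0.741).

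**Figure D5:**
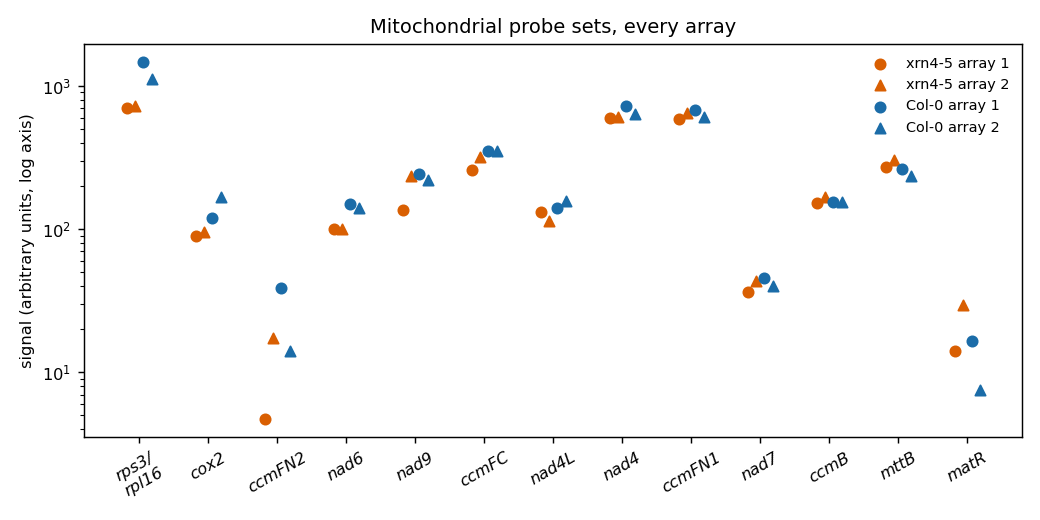
Signal (arbitrary units, log axis) of the 13 mitochondrial probe sets in each array, with colours and shapes for genotype and array number. Probe sets run from the most negative log2 difference (rps3/rpl16, -0.83) to the most positive (matR, 0.28), and the 4 signals of most of them lie close together.

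The nuclear and unnamed probe sets of the block had estimates above 0 more often than below, as did the whole array, with 12054 of 22746 above 0. Of the 15 nuclear ones, 10 were above 0, 6 were separated upwards (background 21.4%) and 1 downwards (background 17.2%). Of the 45 with no listed gene, 29 were above 0, 11 were separated upwards (24.4%, background 21.4%) and 7 downwards (15.6%, background 17.2%). Both of these shares were near the background. Among the nuclear probe sets, 5 carry genes of the chromosome 2 stretch numbered AT2G07, where nuclear copies of mitochondrial DNA are known to lie. AT2G07708 gave 232 and 192 in xrn4-5 and 280 and 260 in Col-0, and AT2G07674 gave 81.3 and 107 against 50.8 and 47.9. The other 10 carry genes numbered AT2G26, and AT2G26500 among them gave 9996 and 11182 against 7558 and 9139 (log2 difference 0.35, limma unadjusted p = 0.035, adjusted p = 0.522). Nuclear examples were chosen after their values were seen. Of the probe sets with no listed gene, 244955_at gave 40.4 and 31.8 against 6.2 and 4.4, 244905_at gave 97.0 and 101 against 51.1 and 64.1, and 244981_at gave 941 and 874 against 1350 and 1214. The first and second of these were too dim for the test, and 244981_at had a limma adjusted p of 0.423.

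Few nuclear partners of the plastid complexes could be matched to a probe set. A listed gene was matched only if a probe set was annotated with that gene alone. The annotation lists no gene for 8730 of the 22746 probe sets, so unmatched genes may still be on the array. Of 23 nuclear NDH subunits and assembly factors listed, 4 had a probe set named for them, and the median log2 difference was 0.05. NDHL, a membrane subunit, gave 677 and 583 in xrn4-5 and 697 and 711 in Col-0, and NDHS, a subunit that binds ferredoxin, gave 1267 and 1094 against 1025 and 1073, so these separated in opposite directions. Of 48 nuclear photosynthesis genes, 8 were matched, with a median of -0.01. PSBW gave 8325 and 6394 against 8440 and 8642, and PSAN gave 5909 and 4907 against 4747 and 4394. These subunits of the photosystems were likewise separated in opposite directions. Of 36 respiration genes, 11 were matched, with a median of 0.03. Cytochrome c gene CYTC-1 gave 6438 and 6510 against 7277 and 7933, and SDH2-1, of succinate dehydrogenase, gave 1783 and 2287 against 1558 and 1798. The former was separated downwards and the latter overlapped. Of 44 factors for RNA processing in organelles, 9 were matched and 3 tested. OTP86, an editing factor, gave 78.9 and 27.6 against 7.6 and 16.5, and OTP81 gave 96.5 and 105 against 62.4 and 78.9. No member of these lists, or of the marker lists that follow, had a limma adjusted p under 0.05, and 0 of those tested had an unadjusted p under 0.05. The 9 sigma factors and organelle RNA polymerases and the 3 XRN genes of the lists have no named probe set here, so the mutated gene was not analysed here as a check of the labels.

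Markers of the tissues in an inflorescence are given beside the plastid values, and their part in those was not tested. Of 14 green tissue markers, 3 were matched, RCA, PRK and PORB. All had estimates below 0 with a median log2 difference of -0.04, although those of RCA and PRK turned without array 1 of Col-0. That median was the value of PORB (SE 0.78), which was far higher in array 2 than in array 1 of both genotypes. The summed signal of the 3 markers was 23141 and 22305 in xrn4-5 and 24022 and 22868 in Col-0. RCA, which activates Rubisco, gave 15653 and 14461 against 16693 and 14421, and PRK, of the Calvin cycle, gave 6828 and 5559 against 6699 and 5938. Of 14 pollen markers, 6 were matched, all with estimates below 0 (median -0.23). Their summed signal was highest in Col-0 array 1, at 3201 against 2437 and 2408 in xrn4-5 and 2278 in Col-0 array 2. TUA1 gave 796 and 760 against 1077 and 850, and ACT12 gave 181 and 184 against 267 and 197. Both pollen genes peaked in the same array as most plastid genes. For the tapetum, the layer that feeds pollen, 2 of 13 were matched, with a median of -0.17 and a summed signal of 5662 and 6026 against 7010 and 6372. Both were separated, ATA27 at 5235 and 5505 against 6481 and 5845 and AMS at 427 and 521 against 529 and 526. Of 16 flower organ genes, 3 were matched, with a summed signal of 443 and 432 against 381 and 448. UFO gave 24.6 and 18.7 against 10.8 and 9.9, and AGL24 gave 196 and 191 against 203 and 166. The only root marker of 9 with a probe set, EXP7, was dim, at 79.4 and 76.6 against 102 and 110.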

How the data were processed

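The ATH1 values deposited by the authors are linear intensities, 1 for each probe set of an array. The submitters' processing notes name GCOS without a version. The authors also deposited log2 ratios for the pairs of same-numbered arrays, with a change p-value per pair whose computation the sources used here do not give.

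Intensities were analysed as log2(value + 32) without further normalization. The 64 control probe sets and the dimmest 40% by mean log value were left out, leaving 13647. The two-sided test was limma 3.58.1 in R 4.3.3, with lmFit and eBayes(trend=TRUE) (2 residual degrees of freedom, prior 3.73), with Benjamini-Hochberg adjustment at 0.05 over all of them. The script was tested on simulated data. A dim probe set has its value from a fit of all 22746. Separated means that both arrays of a genotype lie on the same side of both arrays of the other. Identical values within a genotype were 47 and 46 of 22810, so no array was a duplicate.

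Named genes were, among members with 1 gene, the 8 plastid and 8 mitochondrial ones with the smallest unadjusted p, the brightest of each functional group and ndhF, then the 4 smallest p among members without exactly 1 gene, up to 2 per nuclear or marker list, and the RNA controls. Other members are given to complete their groups and were chosen after their values were seen. Members, lists and tests were chosen with earlier results of these data known. Alternatives changed the pseudocount (16 and 64), the filter, the normalization, the variance trend, the array number as a block and the arrays used. Names follow the platform annotation. Plots were drawn with matplotlib 3.10.9. Precision is limited by having 2 arrays per genotype.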

Additional observations from a re-analysis of the deposited data

How the results depend on the processing

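Pseudocounts of 16 and 64, no filter on dim probe sets and eBayes without trend left every count of organelle probe sets within 1.5 times and the sign of each of the 37 named and tested values as reported. So did quantile normalization and median centring, except that the 1 plastid probe set separated upwards became 0 with both and psaJ turned to -0.017 with median centring. The labels do not say that an array number marks a shared batch, and the correlation of same-numbered deviations was 0.42 over tested and 0.48 over plastid probe sets. With the replicate block, 3 organelle probe sets were called, rpoA (limma adjusted p = 0.0387), ndhE (0.0407) and rps3/rpl16 (0.0395), beside 60 lower and 71 higher among all 13647, and 31 plastid probe sets were lower and 1 higher at an unadjusted p under 0.05. Each array was also left out in turn, with the spread of a lone array taken from the other genotype. Then 4 (without xrn4-5 array 2) to 33 (without Col-0 array 2) plastid probe sets were lower and 0 to 5 higher at that p. Leaving out an array can only keep or add separated probe sets, so counts at or above the reported ones were fixed in advance. From 42 to 64 plastid probe sets were separated downwards, beside the reported 36, and 1 to 16 upwards. Without array 1 of Col-0, 42 plastid probe sets were separated downwards, beside 7043 of all 22746. Without array 2 of Col-0 the counts were 64 and 7814. The plastid median log2 difference was -0.39 to -0.12, and the plastid median deviation was -0.14 to 0.018 for xrn4-5 array 1 and -0.18 to -0.070 for array 2. For mitochondrial probe sets 1 to 2 were lower at that p, 6 to 11 were separated downwards and 1 to 3 upwards, and the median log2 difference was -0.26 to 0.0020. Single differences whose sign turned ranged from -0.58 to 0.014 for rbcL, -0.054 to 0.070 for psaJ, -0.20 to 0.00019 for rpl33, -0.47 to 0.39 for ycf4, -0.14 to 0.022 for ccmFN1, -0.060 to 0.18 for AGL24, -0.15 to 0.061 for RCA and -0.18 to 0.11 for PRK. The causes were not tested, beyond the smaller number of arrays.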

Other observations

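PORB, among the matched green tissue markers, is a nuclear gene for the light-dependent enzyme of chlorophyll synthesis. It was also higher in array 2 of both genotypes, with 660 and 2285 in arrays 1 and 2 of xrn4-5 and 630 and 2509 in Col-0. It was chosen as an example after its values were seen. The 3' actin control of the newer design gave 12520 and 13722 in xrn4-5 and 11112 and 12367 in Col-0, that of GAPDH gave 11794 and 10817 against 10992 and 11059, and that of ubiquitin gave 14429 and 14342 against 15669 and 14511.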
